A study of Mus musculus with 2 samples.

Results

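The cytosolic ribosomal protein genes were followed across the cell classes of 2 single-cell libraries of sorted tumor cells. Members were taken by symbol: every row of the count table that starts with Rpl or Rps, without the S6 kinases (Rps6k) and without rows marked as pseudogenes (-ps). This gave 86 of 31053 rows, 52 of the large subunit (Rpl) and 34 of the small subunit (Rps), and 85 of them held at least 1 UMI, a unique molecular identifier that counts 1 captured mRNA molecule. Rpl10l held none, and 9 members are not standard subunit proteins: the paralogs Rpl7l1, Rpl22l1, Rpl39l, Rpl3l, Rps27l, Rpl10l, Rpl36al and Rps27rt, and the RPS19 binding protein Rps19bp1. Together the members held 7156126 UMIs, 25.4% of all UMIs deposited.

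Each cytosolic ribosome carries 1 copy of nearly every one of these proteins, bound to ribosomal RNA, and proliferating cells make them in large and roughly matched amounts. Their mRNAs are among the most abundant of most mammalian cells. Most start with an uninterrupted run of pyrimidines led by a C, the 5′ terminal oligopyrimidine (TOP) tract, through which mTORC1 and LARP1 control their translation. Neutrophils are short-lived, non-dividing cells that make most of their granule proteins in the bone marrow, and mature neutrophils are known for a low RNA content.

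Both libraries came from subcutaneous Lewis lung carcinoma (LLC) tumors, a transplantable mouse lung cancer line. The hosts were C57BL/6 mice (C57BL/6 J background in the study's methods) aged 8 to 12 weeks, either Smad3+/+ (Smad3-WT) or germline Smad3-/- (Smad3-KO), and the LLC cells themselves carried no labelled change. Tumors were pooled within a genotype and sorted for CD11b+Ly6G+ cells, tumor-associated neutrophils (TANs), before a 10x Chromium 5′ library was made of each pool. With 1 library a genotype there is no replicate check of any difference between Smad3-WT and Smad3-KO, and all intervals given are exact 95% intervals that cover counting error only.

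After the study's limits on cells (at least 200 genes, under 10% mitochondrial UMIs, more than 500 and fewer than 20000 UMIs), 3520 of 4116 Smad3-WT barcodes and 2433 of 2514 Smad3-KO barcodes remained, with a median of 1318.5 and 1199 UMIs a cell. The upper limit alone took out 382 cells of Smad3-WT and 0 of Smad3-KO. The sort and the contents did not match fully: cells of clusters with neutrophil markers made up 51.6% of the Smad3-WT and 44.3% of the Smad3-KO cells, and the rest carried macrophage, dendritic, T, B, fibroblast or carcinoma markers. The libraries shared 73 barcodes. Smad3 itself had 303 UMIs, 12.7 (11.3 to 14.2) per 1000000 UMIs, in the Smad3-WT and 323 UMIs, 76.6 (68.5 to 85.5) per 1000000, in the Smad3-KO library over all barcodes. It was thus higher in the library labelled Smad3-KO, and as the tags come from the 5′ end of the mRNA this row does not check the genotype.

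The start sites of a chosen set of members reported here are printed, since the TOP tract is the feature by which this gene family is usually recognised. Each line gives 15 bases before and 15 bases from the annotated start of a RefSeq transcript on GRCm38.p6, 5′ to 3′ on the gene's own strand, and capitals mark the longest run that has its C within 10 bases of the start on either side and goes on with at least 4 bases that are C or T. Runs that begin farther out, and shorter ones nearer to the start, are left in lower case. Where a gene had several annotated starts, the start with the longest marked run is shown.
Rps27 (chr3:90213634-90213663, minus strand): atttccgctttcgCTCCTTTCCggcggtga
Rps9 (chr7:3704026-3704055, plus strand): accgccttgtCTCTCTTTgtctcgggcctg
Rps24 (chr14:24490663-24490692, plus strand): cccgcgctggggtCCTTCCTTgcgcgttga
Rps6 (chr4:86857353-86857382, minus strand): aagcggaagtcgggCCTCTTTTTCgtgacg
Rps2 (chr17:24720048-24720077, plus strand): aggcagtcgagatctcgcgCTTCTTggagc
Rpl13 (chr8:123102335-123102364, plus strand): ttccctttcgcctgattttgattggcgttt
Rpl10 (chrX:74270801-74270830, plus strand): gttgttacagtggaagataggccgcctata
Rps4x (chrX:102189377-102189406, minus strand): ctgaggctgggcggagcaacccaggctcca
Rpl39 (chrX:37085208-37085237, minus strand): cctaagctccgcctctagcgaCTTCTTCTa
Rps27l (chr9:66946071-66946100, plus strand): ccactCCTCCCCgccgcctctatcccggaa
Rpl22l1 (chr3:28805493-28805522, plus strand): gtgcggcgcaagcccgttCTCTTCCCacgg
Rpl3l (chr17:24727811-24727840, plus strand): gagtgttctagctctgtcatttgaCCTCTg

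Rps27 and Rps24 carried such a run from 2 bases before the annotated start, and Rps6 from 1 base before it. No run with its C within 10 bases of these annotated starts was found for Rpl13, Rpl10 and Rps4x, and the Rpl13 window holds one farther out. Of the 86 members, 66 had at least 1 promoter in the table, 78 promoters in all. A run from the first base itself stood in 14 of the 78 (17.9%), against 2.51% of all 32851 promoters. With its C within 5 bases of the start, it stood in 32 (41.0%), against 18.3% of all promoters. Over 250 bases before to 50 bases after the start, the ETS core CCGGAAG lay on either strand of 27 member promoters (34.6%, all promoters 8.86%), and the YY1-like AAGATGGCG in 6 (7.69%, all promoters 1.40%). TATAAA was found in 7 (8.97%, all promoters 13.6%).

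Ribosomal protein UMIs made up a far smaller share of the neutrophil-like cells than of any other class. In Smad3-WT they were 3.43% (3.40 to 3.46) of the UMIs of 1817 neutrophil-like cells. In Smad3-KO they were 2.94% (2.91 to 2.97) of those of 1077 neutrophil-like cells. These cells carried 11 of 11 neutrophil markers, summed to 89150 counts per 1000000 UMIs (CPM) in Smad3-WT and 96898 CPM in Smad3-KO, against at most 18400.5 CPM in the other classes with at least 20 cells.

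Macrophage or monocyte-like cells held 16.9% in Smad3-WT (1004 cells) and 15.4% in Smad3-KO (50 cells). Dendritic-like cells, led by Ccl22, Ccr7 and Fscn1, held 16.6% (24 cells) and 18.6% (40 cells). A cluster led by H2-Eb1, Mgl2 and Cd209a, which reached too few fixed markers for a name, held 16.2% (264 cells) and 22.0% (70 cells). Fibroblast-like cells held 18.1% (47 cells) and 14.7% (67 cells).

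The highest shares were those of lymphocytes and of the carcinoma cells. T-like cells held 24.3% in Smad3-WT (47 cells) and 33.0% in Smad3-KO (416 cells). B-like cells were nearly all in the Smad3-KO library, where they held 29.3% (494 cells). A cluster led by Siglech, a gene of plasmacytoid dendritic cells, which also carried B markers and was left unnamed, held 16.2% (197 Smad3-KO cells). In LLC carcinoma-like cells the share was 34.9% in Smad3-WT (309 cells) and 26.5% in Smad3-KO (22 cells). Those 22 cells were shallow, at 610.5 UMIs in the median cell where Smad3-WT had 13650. They held 4 UMIs of Krt8, 8 of Wfdc2, 4 of Cav1, 1 of Rhox5 and 0 of Krt18, so the label rests on few tags. Of the other listed carcinoma markers, Epcam had 2 UMIs in 1 of these cells and Krt19 had 0. The 309 Smad3-WT cells held 0 UMIs of Epcam and 0 of Krt19.

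Within Smad3-WT the share of each other class was 4.72 (4.67 to 4.76, the H2-Eb1 cluster) to 10.2 (10.1 to 10.3, LLC carcinoma-like) times that of the neutrophil-like cells. Within Smad3-KO it was 4.98 (4.91 to 5.04, fibroblast-like) to 11.2 (11.1 to 11.3, T-like) times. The class order put macrophage, dendritic, H2-Eb1 and fibroblast-like cells between 14.7% and 22.0% in both libraries, and their order among themselves was not the same in the 2 libraries.

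**Figure D1:**
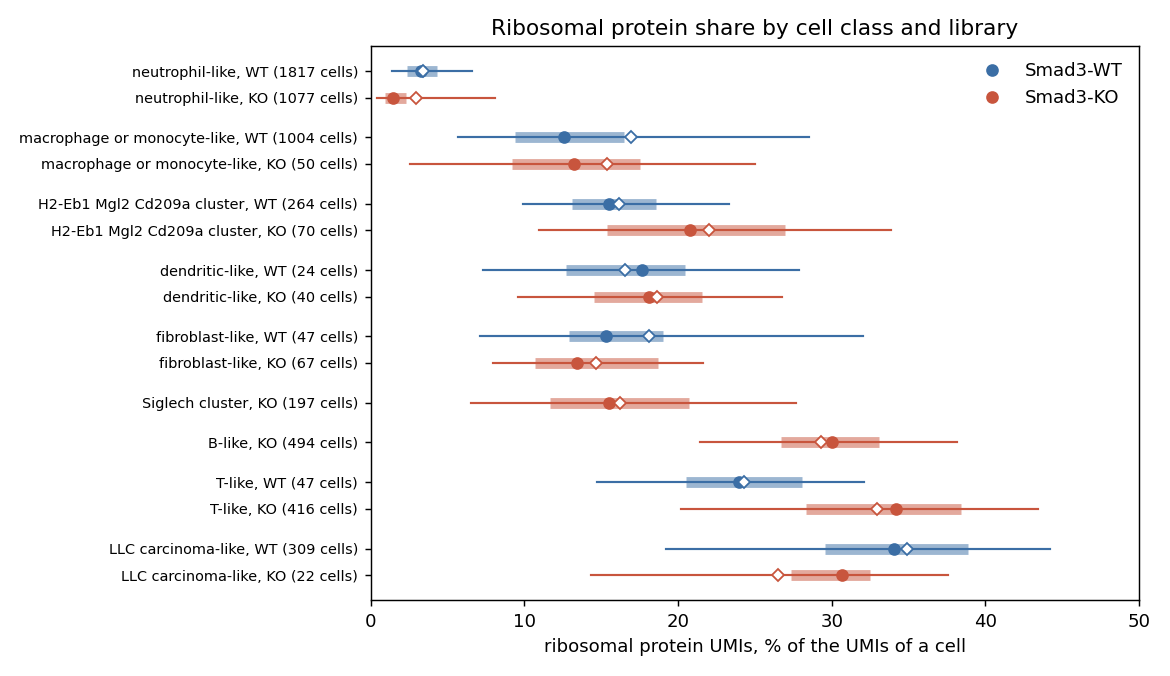
Share of each cell's UMIs that came from the 86 ribosomal protein genes (x axis, percent), by cell class and library (rows, with the number of cells). Thick bars span the 25th to 75th percentile of cells, thin lines the 5th to 95th, filled circles mark the median cell and open diamonds the share of the summed UMIs. The neutrophil-like cells sit at the left, with medians of 3.24% and 1.44%, and T-like, B-like and LLC carcinoma-like cells at the right.

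Most ribosomal protein UMIs of a library came from a minority of its cells. Neutrophil-like cells gave 2.14% of the ribosomal protein UMIs of the Smad3-WT library and 5.18% of those of the Smad3-KO library. In Smad3-WT, 53.0% came from the LLC carcinoma-like cells, which were 8.78% of the cells. In Smad3-KO, 32.1% came from B-like and 29.5% from T-like cells. Over all cells kept, the members held 20.9% (20.9 to 20.9) of the Smad3-WT and 17.6% (17.6 to 17.6) of the Smad3-KO UMIs, a Smad3-KO over Smad3-WT ratio of 0.841 (0.839 to 0.843). The mean of the single cells' shares went the other way, 10.6% in Smad3-WT and 16.0% in Smad3-KO, a ratio of 1.51. The direction for the sorted sample as a whole therefore depended on whether molecules or cells were averaged.

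Cells with a UMI of the proliferation genes Mki67 or Top2a differed in opposite directions in 2 Smad3-WT classes. Of the macrophage or monocyte-like cells, the 95 with either gene held 23.9% (23.8 to 24.0) ribosomal protein UMIs and the 909 without held 15.01% (14.97 to 15.04). Their median depths were 10444 and 3227 UMIs. Of the LLC carcinoma-like cells, the 122 with either gene held 33.9% (33.8 to 34.0) and the 187 without held 35.7% (35.6 to 35.7), at median depths of 15126 and 12538 UMIs. The Smad3-WT macrophage or monocyte-like class as a whole held LLC carcinoma markers at 230 CPM in sum. These markers were not counted apart in the cells with and without Mki67 or Top2a. The part of depth and of carcinoma transcripts in these differences was not tested.

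Neutrophil-like cells did not hold a scaled-down copy of the ribosomal protein mRNAs of other cells. Their most abundant member was Rps27, a zinc finger protein of the small subunit, at 1946 CPM (1878 to 2016) in Smad3-WT and 1758 CPM (1686 to 1832) in Smad3-KO. In Smad3-WT it was followed by Rps9, a protein of the decoding region of the small subunit, at 1430 CPM (1372 to 1490), then by Rpl37 at 1234, Rps29 at 1129 and Rpl23 at 1048 CPM. In Smad3-KO it was followed by Rps29 at 1371 CPM (1308 to 1437), then by Rps9 at 1226 (1167 to 1288), Rpl39 at 931 and Rpl37 at 813 CPM. The intervals of Rps27, Rps9 and Rps29 did not overlap within either library, and Rps9 and Rps29 stood in opposite order in the 2 libraries.

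Other classes were led by other members. Rpl13, a large subunit protein, came first in Smad3-WT macrophage or monocyte-like (6237 CPM), fibroblast-like (6160), H2-Eb1 (4727) and LLC carcinoma-like cells (19559), and was number 10 in Smad3-WT and 18 in Smad3-KO neutrophil-like cells, at 745 and 450 CPM. The Smad3-WT macrophage or monocyte-like cells also held LLC carcinoma markers at 230 CPM in sum, and the part of carcinoma transcripts in their Rpl13 level was not tested. Rps19, which is mutated in Diamond-Blackfan anemia, came first in dendritic-like cells of both libraries, at 4680 CPM in Smad3-WT and 7497 CPM in Smad3-KO, and stood at 289 and 367 CPM in neutrophil-like cells. Rps29, a zinc-binding protein of the small subunit head, led the Smad3-KO T-like (11778 CPM), Siglech (5650), H2-Eb1 (7909) and macrophage or monocyte-like cells (6444). In B-like cells Rps24 led at 9699 CPM, with Rps29 at 9550 and Rps27 at 9324.

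Set against macrophage or monocyte-like cells of the same Smad3-WT library, 81 of 84 members with at least 20 UMIs were at least 1.5-fold lower in neutrophil-like cells, against 60.3% of all 9895 genes. A single member was at least 1.5-fold higher, against 16.8% of all genes. The median member ratio was 0.197, and the median over all genes was 0.491.

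Rps27 stood out from this pattern. It had 1946 CPM in neutrophil-like and 2001 CPM in macrophage or monocyte-like cells, a ratio of 0.973 (0.934 to 1.01). Rps27rt is a copy that shares 90.8% of its 60-base stretches with Rps27 and so can be counted apart from it only in part. Its ratio was 0.898 (0.701 to 1.14). The ratio was 0.629 (0.601 to 0.659) for Rps9 and 0.527 (0.485 to 0.573) for Rpl10, the large subunit protein that is added last during maturation. At the other end, Rps4x, the X-linked small subunit protein, had 262 against 3811 CPM, a ratio of 0.0687 (0.0622 to 0.0757). Rpl3, which lies by the peptidyl transferase center, had a ratio of 0.0777 (0.0664 to 0.0905), and Rpl10a one of 0.0881 (0.0761 to 0.101). The spread of member ratios, from 0.0687 to 0.973 among the standard proteins, was far wider than their counting intervals. It was narrower than that of other genes. The 10th to 90th percentile was 0.119 to 0.329 for the members and 0.101 to 2.30 for all genes tested.

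**Figure D2:**
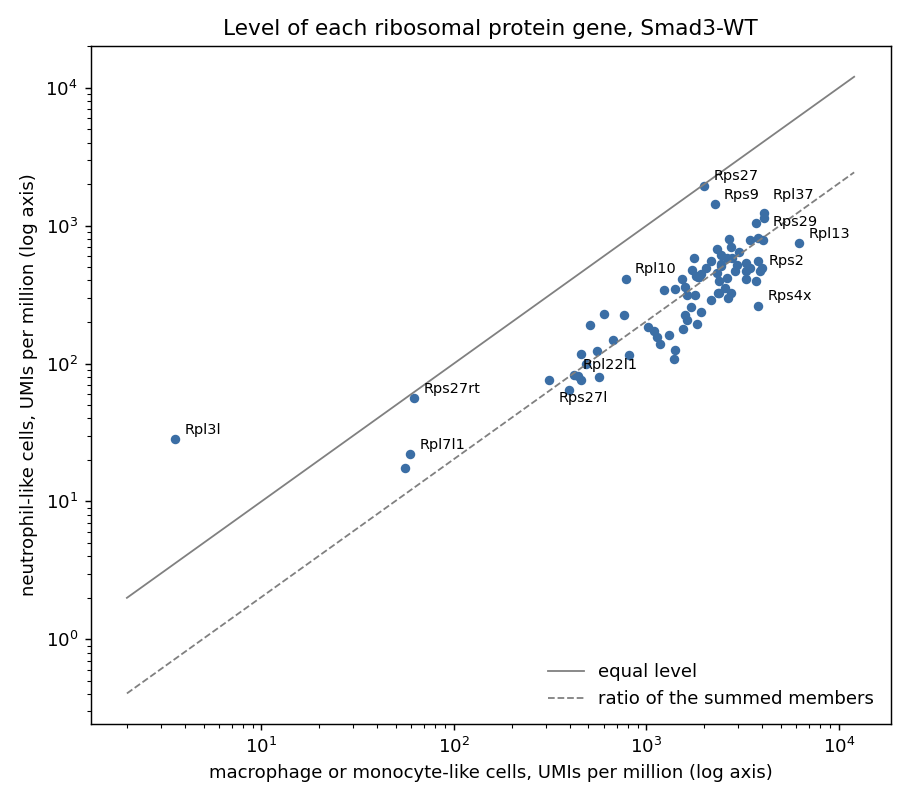
Level of each detected ribosomal protein gene in Smad3-WT macrophage or monocyte-like cells (x axis) and neutrophil-like cells (y axis), both in CPM on log axes, 1 point a gene. The solid line marks equal levels and the dashed line the ratio of the summed members; Rps27 and Rps27rt lie close to the solid line, Rps9 and Rpl10 between the lines, Rps4x far below, and Rpl3l above.

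The same members had the highest ratios in the Smad3-KO library, whose macrophage or monocyte-like class was small. All 81 members tested were at least 1.5-fold lower in neutrophil-like than in macrophage or monocyte-like cells (50% of all 4381 genes), with a median ratio of 0.174. Rps27 had the highest ratio, 0.616 (0.545 to 0.699), and the ratio was 0.410 (0.362 to 0.465) for Rps9 and 0.348 (0.271 to 0.452) for Rpl10.

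Against the remaining classes the members again stood below the other genes. In Smad3-WT, neutrophil-like cells were at least 1.5-fold lower in 81 of 84 members against the H2-Eb1 cluster (53.6% of all genes), 81 of 84 against dendritic-like (39.6%), 82 of 84 against T-like (45.3%), 82 of 84 against LLC carcinoma-like (59.2%) and 80 of 84 against fibroblast-like cells (47.5%). The median member ratios ran from 0.0970 (LLC carcinoma-like) to 0.203 (dendritic-like), and the medians of all genes from 0.447 to 0.898. In each of these 5 comparisons 1 member, Rpl3l, which held 0 to 5 UMIs in the other class, was at least 1.5-fold higher, against 21.9%, 34.8%, 31.6%, 25.9% and 28.8% of all genes. In Smad3-KO every member tested was lower against the H2-Eb1 cluster (83 of 83, all genes 52.6%), dendritic-like (81 of 81, 44.2%), T-like (83 of 83, 59.5%), B-like (83 of 83, 61.7%) and Siglech-led cells (82 of 82, 53.1%), and 81 of 83 against fibroblast-like cells (53.7%) and 78 of 81 against LLC carcinoma-like cells (45.7%). No member was at least 1.5-fold higher there, against 25.9%, 32.8%, 24%, 22.5%, 17.5%, 27.3% and 28.6% of all genes in that order, although Rps27rt held 0 UMIs in the 22 LLC carcinoma-like cells and so has no ratio.

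Markers of other classes were present in neutrophil-like cells at low levels. In Smad3-WT, the 13 macrophage or monocyte markers had in neutrophil-like cells a median of 0.0312 of their level in macrophage or monocyte-like cells, with Ly6c2 highest at 0.567, whereas the summed members stood at 0.203. All 83 members compared lay above that median and 3 lay above Ly6c2. Most genes lay above that median too, as the 10th percentile over all genes tested was 0.101. For the LLC carcinoma markers that quotient had a median of 0.0195 and a maximum of 0.0309 (Krt18), and the lowest member quotient to LLC carcinoma-like cells was 0.0307 (Rps4x). In Smad3-KO, B markers in neutrophil-like cells had a median of 0.00197 and a maximum of 0.0321 (Ighm) of their level in B-like cells, and the lowest member quotient was 0.0496 (Rpl3). For T markers the quotient had a median of 0.0382 and a maximum of 0.0616 (Trac), and 62 of 80 members lay above that maximum. The 10th percentile over all genes tested lay above the marker maximum in each of these comparisons. It was 0.0503 against LLC carcinoma-like, 0.0783 against B-like and 0.0871 against T-like cells. The counts of members above the markers thus do not set the members apart from other genes. The part of free RNA in the member levels of neutrophil-like cells was not tested beyond these quotients.

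The question the study put to these libraries was how Smad3 shapes TANs. The cells compared were not of the same clusters: Smad3-WT neutrophil-like cells were mostly of cluster 1 (958 cells, led by Ifit3b and Cxcl3, 3.04% ribosomal protein UMIs) and cluster 2 (842 cells, led by Mmp9 and Cxcr2, 3.997%). Smad3-KO neutrophil-like cells were mostly of cluster 3 (849 cells, led by Il1a and Csf3, 2.67%), with 138 cells of cluster 2 (3.56%) and 60 of cluster 13 (4.44%), which was led by Camp, Ngp and Ltf, granule genes of immature neutrophils. The members were lower in Smad3-KO. The ratio of the summed shares was 0.858 (0.847 to 0.870), and the median cell held 3.24% in Smad3-WT and 1.44% in Smad3-KO.

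Lymphocyte markers moved with this value. In Smad3-KO, 114 of the 1077 neutrophil-like cells held a UMI of at least 1 of the 9 T or 8 B markers (265 T and 79 B marker UMIs), and their ribosomal protein share was 9.98% (9.84 to 10.1), with 35 cells above 10%. The other 963 cells held 1.83% (1.80 to 1.85), with 8 cells above 10%. The 114 cells gave 17553 of the 37836 ribosomal protein UMIs of the class and had less of the neutrophil markers, 65320 against 101906 CPM. In Smad3-WT, 119 cells held such a UMI (21 T and 107 B marker UMIs, the latter all Ighm), and their share was 3.26% (3.17 to 3.36), against 3.44% (3.41 to 3.47) in the other 1698 cells. The summed T markers of the class were 13.2 CPM in Smad3-WT (6 of 9 detected, with Trac, Cd8a and Cd4 at 0) and 206 CPM in Smad3-KO (9 of 9), and the B markers 67.3 CPM (1 of 8) and 61.5 CPM (7 of 8, with Ighd at 0). Macrophage or monocyte markers summed to 517 and 421 CPM, LLC carcinoma markers to 25.8 and 0 CPM, erythroid markers to 220 and 1338 CPM and immature granule genes to 15.1 and 7724 CPM, and the part of these in the result was not tested. Without the Camp, Ngp and Ltf cluster the ratio of the shares was 0.802. Without the cells that held a T or B marker UMI, a choice made after the data were seen, the Smad3-KO over Smad3-WT ratio was 0.531 (0.522 to 0.540).

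Depth moved with the share as well. In Smad3-KO neutrophil-like cells it was 2.58% at 500 to 750 UMIs, 1.77% at 750 to 1000, 2.79% at 1000 to 2000 and 4.54% at 2000 to 20000 UMIs, and the summed T markers in the same bins were 41.8, 61.8, 188 and 460 CPM. In Smad3-WT the share stayed between 3.08% and 3.76% in the same bins, with T markers between 8.74 and 17.9 CPM. In the deepest bin the share was thus higher in Smad3-KO, 4.54% against 3.43% in Smad3-WT, and in the others it was lower. With every cell thinned to 500 UMIs the ratio was 0.722 (0.708 to 0.737), next to the 0.719 of the mean over cells. Thinning to 1 depth gives every cell the same weight, so this value repeats that mean and is no separate check of depth. Outside these depth bins, the ratio lay between 0.531 and 0.861 under all the alternatives tried, below 1 in each.

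Gene by gene, the members had the same median ratio as all genes of these cells in the main setting, and the member values moved with the clustering and the cell filter. Of 84 members tested, 16 were at least 1.5-fold lower in Smad3-KO (19.0%), against 36% of all 6014 genes tested, and 0 were at least 1.5-fold higher, against 13.5% of all genes. The median member ratio was 0.801 and that of all genes 0.800, so the 2 medians lay next to each other. Scaled by the median of gene ratios in place of the total, 5 members were lower and 7 higher, with a median of 0.971. With another clustering seed 60 members were lower and the member median was 0.598. With 30 components these values were 60 and 0.594, and with no cell filter 62 and 0.585. The share of all genes past the fold was not computed under that scaling or in these settings. Without the cells holding a T or B marker UMI, the median of the members lay below that of all genes. Then 73 of 84 members (86.9%) were at least 1.5-fold lower, against 42% of all 5651 genes, and 0 were higher (all genes 12.9%). The median member ratio was 0.476 and that of all genes 0.737.

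Among members with at least 200 UMIs in the neutrophil-like cells of both libraries together, those with the lowest ratios were low with and without those cells. Rps2, which lies by the mRNA entry channel, had 472 CPM (439 to 507) in Smad3-WT and 212 CPM (187 to 238) in Smad3-KO, a ratio of 0.449 (0.389 to 0.516), or 0.322 without cells holding a T or B marker UMI. Rpl36al, a retrogene copy of Rpl36a, had a ratio of 0.455 (0.361 to 0.569), or 0.255. Rpl29, a basic protein of the large subunit surface, had 0.527 (0.433 to 0.638), or 0.335. Rpl13 had 0.604 (0.546 to 0.667), or 0.287, and Rps6, the substrate of the S6 kinases, 0.616 (0.489 to 0.772), or 0.325. The other 5 of the 10 lowest, Rpl41, Rpl26, Rpl27, Rpl10 and Rpl37, had ratios from 0.558 to 0.659, and from 0.373 to 0.567 without those cells. Rpl7l1, Rpl3l, Rps27rt, Rps27l and Rps19bp1, also among the 16, had fewer UMIs and ratios from 0.353 to 0.618.

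The members with the highest ratios were on the other side of 1 without those cells. Rps24 had 550 CPM (514 to 588) in Smad3-WT and 763 CPM (716 to 812) in Smad3-KO, a ratio of 1.39 (1.26 to 1.52), but 0.523 without the cells holding a T or B marker UMI. Rps4x went from 1.36 (1.19 to 1.56) to 0.370, Rpl10a from 1.37 (1.12 to 1.67) to 0.356 and Rpl22l1 from 1.40 (1.10 to 1.78) to 0.792. For the other 6 of the 10 highest, Rpl35a, Rps19, Rplp1, Rps15a, Rps29 and Rps28, ratios from 1.21 to 1.28 became 0.484 to 0.877. By CPM, no member was higher in Smad3-KO neutrophil-like cells once those cells were left out, where the median of all genes was 0.737. Scaling by the median of gene ratios was not computed without those cells.

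Rps27 and Rps9, the leading members of these cells, differed less between the libraries than most. Rps27 had a ratio of 0.903 (0.855 to 0.954), 0.728 without cells holding a T or B marker UMI, and 1.10 when scaled by the median of gene ratios. Rps9 had 0.857 (0.804 to 0.915), with 0.780 and 1.04 under the same choices. Without those cells the order in Smad3-KO was Rps27 at 1416 CPM, Rps9 at 1115 and Rps29 at 927, so that Rps9 stood second as in Smad3-WT.

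**Figure D3:**
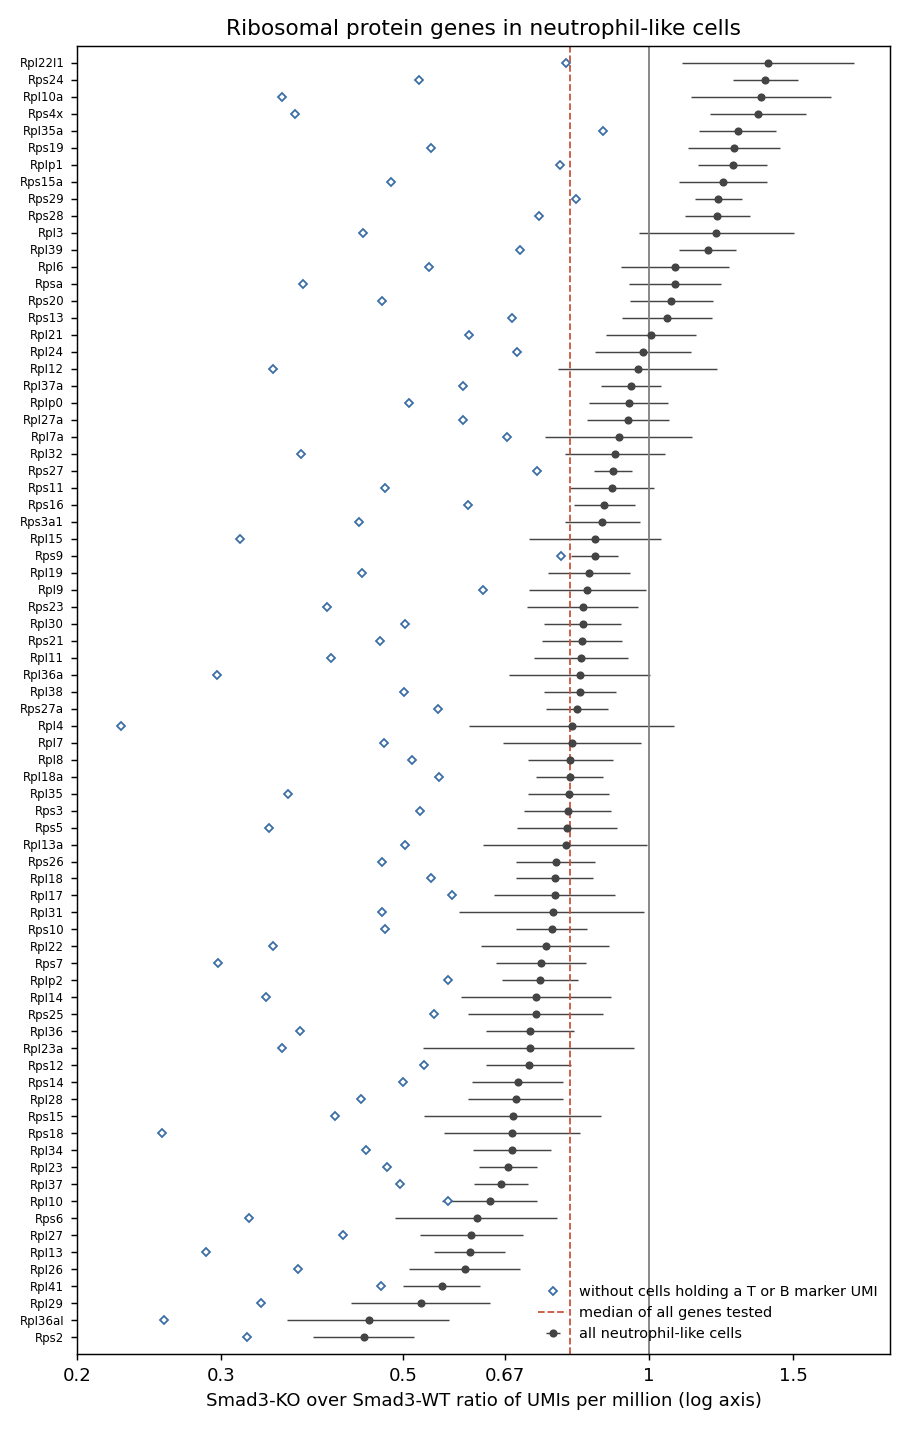
Smad3-KO over Smad3-WT ratio of CPM (x axis, log) in neutrophil-like cells for the members reported here with at least 200 UMIs in these cells over both libraries, sorted by ratio. Filled points with bars show all neutrophil-like cells with 95% counting intervals, open diamonds the ratio without cells holding a T or B marker UMI, and the dashed line the median over all genes tested (0.800); the points run from 0.449 (Rps2) to 1.40 (Rpl22l1), and every diamond lies below 1.

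In the main setting, several members differed in the same direction in classes beyond the neutrophils. Rps2 was at least 1.5-fold lower in Smad3-KO in macrophage or monocyte-like cells (3870 against 1436 CPM, ratio 0.371), fibroblast-like cells (4186 against 1704, 0.407), dendritic-like cells (2111 against 926, 0.439) and T-like cells (4771 against 2614, 0.548), and had ratios of 0.688 in the H2-Eb1 cluster and 0.820 in LLC carcinoma-like cells. Rpl29 had ratios from 0.573 to 0.709 in those classes other than LLC carcinoma-like cells, where it was 1.16. Rps29 went the other way, with ratios of 3.06 in T-like, 2.45 in H2-Eb1, 1.82 in dendritic-like, 1.59 in macrophage or monocyte-like and 1.09 in fibroblast-like cells, and of 0.321 in LLC carcinoma-like cells. Rpl35a, a large subunit protein, had 1.99 in macrophage or monocyte-like, 2.14 in H2-Eb1, 2.33 in T-like, 1.55 in dendritic-like and 1.26 in fibroblast-like cells, but 0.495 among the LLC carcinoma-like ones. In neutrophil-like cells the ratios of Rps29 and Rpl35a were 1.21 and 1.28. They became 0.813 and 0.877 without cells holding a T or B marker UMI, so there the direction was not stable. Summed LLC carcinoma markers in macrophage or monocyte-like cells were 230 CPM in Smad3-WT and 0 CPM in Smad3-KO, and their part in the ratios of that class was not tested. As each genotype is 1 library, a difference shared by cell classes cannot be told apart from one between the libraries.

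T-like cells held more ribosomal protein UMIs in Smad3-KO, with a ratio of 1.36 (1.34 to 1.37). Of 83 members tested, 19 were at least 1.5-fold higher, at 22.9% close to the 21% of all 5007 genes, and 3 were lower (Rps2, Rps27l and Rps19bp1), against 25.9% of all genes. The median member ratio was 1.23 and that of all genes 0.920. After Rps29 (3850 to 11778 CPM), the highest ratios were those of Rps28 at 2.43, Rps27 at 2.33 and Rpl35a at 2.33. The summed cycling markers in the same cells were 1345 CPM in Smad3-WT and 274 CPM in Smad3-KO. Natural killer (NK) cell markers summed to 2021 CPM in Smad3-WT (7 of 7 detected) and 371 CPM in Smad3-KO (6 of 7). The T-like class thus held NK transcripts in unlike amounts in the 2 libraries. The part of either marker list in the result was not tested.

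The H2-Eb1 cluster showed a like difference, with a ratio of the summed shares of 1.36 (1.35 to 1.37). Here 18 of 83 members were at least 1.5-fold higher (22.9% of all 6945 genes) and 0 lower (21% of all genes), with a median of 1.29 for members and 1.03 for all genes. Rps29, Rps27 (2.14), Rpl35a and Rps28 (2.12) again had the highest ratios. The summed T markers of this cluster were 91.1 CPM in Smad3-WT and 893 CPM in Smad3-KO, and the B markers 43.7 and 222 CPM. In dendritic-like cells the ratio of the shares was 1.13 (1.10 to 1.15), with 10 members higher and 7 lower of 81 tested (20.2% and 26.3% of all 1493 genes). The T markers there were 0 CPM in Smad3-WT and 319 CPM in Smad3-KO, and the B markers 42.6 and 136 CPM. The part of these lymphocyte markers in either result was not tested.

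For macrophage or monocyte-like cells the shares had a ratio of 0.910 (0.895 to 0.924). There 2 members were higher, Rps29 and Rpl35a, and 7 lower of 83 tested, against 35.7% and 19.9% of all 9596 genes. In fibroblast-like cells it was 0.810 (0.800 to 0.819), with 0 members higher and 8 lower of 83 (18.9% and 17.4% of all 4841 genes). In LLC carcinoma-like cells it was 0.760 (0.737 to 0.783), with 6 higher and 31 lower of 83 (68.3% and 7.85% of all 9111 genes), a comparison that rests on the 22 shallow Smad3-KO cells described above. Summed T markers were 52.9 (Smad3-WT) and 236 CPM (Smad3-KO) in macrophage or monocyte-like and 12.3 and 125 CPM in fibroblast-like cells. B markers were 29.8 and 512, and 27.7 and 271 CPM, in the same order. LLC carcinoma markers summed to 230 CPM in Smad3-WT and 0 CPM in Smad3-KO macrophage or monocyte-like cells. In fibroblast-like cells they were 151 CPM in Smad3-WT (4 of 7 detected) and 147 CPM in Smad3-KO (1 of 7). The Smad3-KO value was all Cav1, so the near sums do not show like amounts of the other carcinoma markers. The part of these markers in the ratios was not tested.

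**Figure D4:**
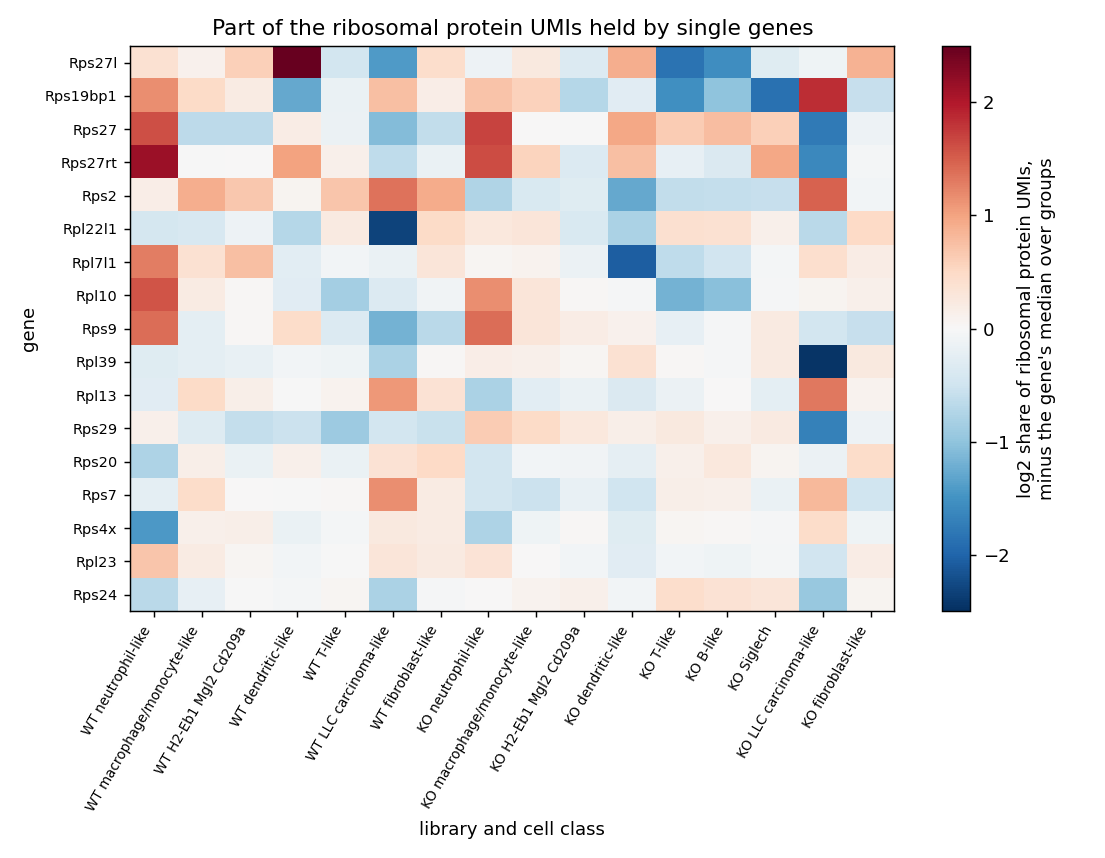
Part of the ribosomal protein UMIs of each library and class (columns) held by single genes (rows): the 10 members with the widest spread over the 16 groups, then further members among the 10 with the highest levels. Colour gives the log2 share minus the gene's median over the groups, with values beyond 2.5 drawn as 2.5; Rps27, Rps27rt, Rps9 and Rpl10 stand high in both neutrophil-like columns, Rps27l in the Smad3-WT dendritic-like column, and Rpl13 and Rps2 in the LLC carcinoma-like columns.

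The balance of the subunits also varied by class and library. The ratio of large to small subunit UMIs in neutrophil-like cells was 1.15 (1.13 to 1.17) in Smad3-WT and 1.03 (1.01 to 1.05) in Smad3-KO, and 1.03 (0.999 to 1.06) in Smad3-KO without cells holding a T or B marker UMI. In T-like cells it was 1.22 (1.19 to 1.24) and 1.07 (1.07 to 1.08). It was 1.27 (1.25 to 1.30) and 1.29 (1.27 to 1.31) in fibroblast-like, 1.13 (1.10 to 1.17) and 1.13 (1.10 to 1.16) in dendritic-like, and 1.22 (1.21 to 1.22) and 1.19 (1.16 to 1.23) in macrophage or monocyte-like cells. In the H2-Eb1 cluster it was 1.21 (1.202 to 1.222) and 1.14 (1.13 to 1.16), and in LLC carcinoma-like cells 1.22 (1.21 to 1.22) and 1.17 (1.10 to 1.25). The intervals of the 2 libraries were apart in neutrophil-like and T-like cells and in the H2-Eb1 cluster and overlapped in dendritic, fibroblast, macrophage or monocyte and LLC carcinoma-like cells.

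Among members with at least 200 UMIs over all cells kept, the SD of the log2 part of the ribosomal protein UMIs over the 16 groups of class and library had a median of 0.357. The widest spreads were those of Rps27l (1.08), Rps19bp1 (1.03), Rps27 (0.938), Rps27rt (0.912) and Rps2 (0.820). By UMIs over all cells, Rpl13 came first with 134390, followed by Rps29 (82331), and Rps20, Rps2, Rps7, Rps4x, Rpl39, Rpl23 and Rps24 were also among the 10 highest. The lowest above 0 were Rps27rt (1140), Rps19bp1 (999), Rpl7l1 (922), Rpl3l (87) and Rpl39l (28).

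Rps27l and Rpl22l1 were spread over the classes unlike their standard partners. Rps27l, a p53-responsive paralog of Rps27, was highest in dendritic-like cells, at 1706 CPM in Smad3-WT and 591 in Smad3-KO, and in neutrophil-like cells stood at 76.1 (63.2 to 91.0) and 45.9 (34.9 to 59.2) CPM. Rps27 led the members within neutrophil-like cells, but its level there was 0.478 of that in T-like cells in Smad3-WT and 0.185 in Smad3-KO. Rpl22l1, the paralog of Rpl22, reached 1432 CPM in Smad3-KO T-like and 1254 in B-like cells, and was 232 CPM in Smad3-WT LLC carcinoma-like cells, where Rpl22 was at 3389 CPM. Rpl36al and Rpl36a stood at 183 and 162 CPM in Smad3-WT neutrophil-like cells and at 1714 and 3795 CPM in Smad3-WT LLC carcinoma-like cells. Rpl7l1, a nucleolar assembly factor, was at 22.0 and 7.78 CPM in Smad3-WT and Smad3-KO neutrophil-like cells, far under Rpl7 at 171 and 138 CPM.

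Rpl3l, a paralog of Rpl3 known from striated muscle, held 45 of its 87 UMIs in Smad3-WT neutrophil-like cells, 28.3 CPM (20.7 to 37.9), and 17 in Smad3-KO ones, 13.2 CPM (7.71 to 21.2). It was the member higher in neutrophil-like than in macrophage or monocyte-like cells, with a Smad3-WT ratio of 7.94 (4.45 to 14.8) on 45 and 17 UMIs. Its transcript shared no 60-base stretch with another gene. Rpl39l, a paralog of Rpl39 known from male germ cells, had 28 UMIs in all and 0 in neutrophil-like cells of either library, which allows up to 1.89 CPM in Smad3-WT and 2.33 CPM in Smad3-KO.

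Sharing of sequence limits how far single rows can be read. Of the 86 members, 82 shared at least 1 stretch of 60 bases with another annotated gene, and 29 shared most of their stretches. How many of those other genes are pseudogenes was not counted. The shares were 85.2% for Rpl10, 80.0% for Rpl13, 68.1% for Rps2, 65.0% for Rps4x and 62.2% for Rps27, and 12.0% for Rps9, 12.8% for Rpl39 and 16.1% for Rps24. Levels of the former may be lowered where reads matched several places.

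Other genes of the translation apparatus were taken from lists. Among ribosomal proteins with other symbols, Fau, which encodes a small subunit protein behind a ubiquitin-like domain, resembled Rps27. It stood at 6289 CPM in Smad3-WT neutrophil-like and 5747 CPM in macrophage or monocyte-like cells, a ratio of 1.09 (1.07 to 1.12). Rack1, a scaffold on the small subunit, had a ratio of 0.146 (0.124 to 0.170). In Smad3-KO the ratio was 0.801 for Fau and 0.0976 for Rack1.

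All 16 of the other TOP mRNAs were at least 1.5-fold lower in Smad3-WT neutrophil-like than in macrophage or monocyte-like cells, with a median of 0.174. The elongation factor Eef1a1 had 810 against 4682 CPM and Tpt1 2086 against 3956 CPM. So were all 21 ribosome biogenesis genes (median 0.223), among them the nucleolar protein Npm1 at 76.1 against 636 CPM. Of 78 mitochondrial ribosomal proteins, 74 were lower and 1 higher (median 0.247). Of 17 initiation factors, 14 were lower and 1 higher (median 0.334): Eif1, which guards start codon choice, stood at 4345 against 1695 CPM, a ratio of 2.56 (2.48 to 2.65). Of 9 S6 kinases tested, 5 were lower and 1 higher (median 0.658). Of all genes in this comparison 60.3% were lower and 16.8% higher, with a median of 0.491, so the S6 kinases stood near that share and the other lists had a lower median.

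Between the libraries, neutrophil-like cells had a median Smad3-KO over Smad3-WT ratio of 0.849 for the 16 TOP mRNAs (1 higher, 3 lower), 0.737 for 17 initiation factors (0 higher, 8 lower), 0.735 for 10 biogenesis genes tested (1 higher, 3 lower), 0.671 for 46 mitochondrial ribosomal proteins tested (3 higher, 22 lower) and 0.551 for 6 S6 kinases tested (2 higher, 4 lower). Of all genes 13.5% were higher and 36% lower, with a median of 0.800, and the shares of the TOP mRNAs and biogenesis genes that were lower did not exceed this. Fau had a ratio of 0.753 (0.730 to 0.778) and Rack1 one of 0.704 (0.541 to 0.910). Without cells holding a T or B marker UMI the medians were 0.656, 0.593, 0.441 (6 tested), 0.593 (40 tested) and 0.528 in that order, and the ratios of Fau and Rack1 were 0.728 and 0.363. Eif5a, the hypusine-bearing translation factor, stood at 1024 CPM in Smad3-WT and 192 CPM in Smad3-KO, a ratio of 0.188 (0.164 to 0.215), or 0.183 without those cells.

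Over the 16 groups of class and library, genes outside the members whose level was much like the summed members (Pearson's r of log2 levels, over 7270 genes, given as a description of groups that share 2 libraries) included the pseudogene row Rpl9-ps6 (0.979), Eef1a1 (0.978) and Naca (0.975), followed by Prpf19, Telo2, Nudc, Nsa2, Orc2 and Snrpd2. The members themselves had a median r of 0.958 and the other genes one of 0.350. The members least like the sum were Rps27rt (0.448), Rps27 (0.496), Rps27l (0.531), Rps19bp1 (0.572), Rpl7l1 (0.739) and Rpl10 (0.758). Without the Smad3-KO LLC carcinoma-like cells, Eef1a1 came first (0.988) and Npm1 reached 0.982.

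The authors' own 13 clusters, deposited as average levels over all barcodes, could be read in the same way. The ribosomal protein share ran from 1.61% in their cluster 3 to 33.6% in their cluster 2. Rps27 was the top member in the 4 clusters with the lowest shares (3, 1, 6 and 4, at 1.61%, 2.90%, 3.20% and 4.88%), which were among the 5 with the highest averages of neutrophil markers. Rpl13 was the top member in clusters 2, 11 and 7. Rps27 made up 9.09% of the ribosomal protein level in cluster 3 and 0.718% in cluster 11, which had the highest carcinoma markers.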

How the data were processed

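The authors sequenced 5′ tags of 2 sorted pools on a NovaSeq and processed them with Cell Ranger 3.0.2 against mm10, per the labels, and deposited UMI counts per gene and barcode, not normalized. Barcode suffixes were tied to Smad3-WT and Smad3-KO because the mean scaled counts of each suffix equalled 1 of the 2 library averages in the deposited signal tables (largest difference 3.58e-08). Those averages are scaled to 1311 per library or cluster, and the authors' fold changes and p-values beside them compare clusters or genotypes and were not used. The deposited gene and barcode lists, of unit other, only name rows and columns.

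Cells with under 200 genes, 10% or more mitochondrial UMIs, 500 UMIs or fewer, or 20000 or more were left out. Counts were scaled to 10000 UMIs a cell and logged, and 2000 variable genes without the members, 100 principal components, 15 neighbours and Louvain clustering at resolution 1 gave 13 clusters (Python 3.11.15, scanpy 1.11.5, igraph 0.11.9, scikit-learn 1.9.0). A cluster was called by a class when at least 3 of its markers were detected in 10% of cells at 2-fold or more. The name was withheld when the leading genes held more markers of another class. It was also withheld when the first leading gene was a marker of another class, as in the Siglech cluster. Shallow clusters with no marker of their own class among the leading genes were left unnamed too. Scrublet marked 3 of 5953 cells (0.0504%) as doublets, and none were removed. How many doublets it missed was not tested, so doublets may remain among the cells kept.

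UMIs were summed per library and class. Shares have exact binomial (Clopper-Pearson) intervals, levels exact Poisson intervals and ratios exact conditional binomial intervals at 95% (numpy 2.4.6, scipy 1.17.1, pandas 2.3.3, drawn with matplotlib 3.10.9), and a count of 0 was read as up to 3 UMIs. Genes with at least 20 UMIs over both groups entered a comparison, and called means a ratio of at least 1.5 or at most 0.667 after 0.5 UMI was added to each sum (printed ratios of single genes are without it). Each UMI counts 1 molecule by 1 tag, so levels were not divided by length. With 1 pool a group no p-value was computed. The ratio code was tested on simulated data.

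Genes were named by fixed rules: the 10 members of highest level, the 10 highest and 10 lowest Smad3-KO over Smad3-WT ratios among members with at least 200 UMIs in neutrophil-like cells, the 10 widest spreads among members with at least 200 UMIs over all cells kept, paralogs, and the 10 genes most like the members. Some genes that these rules name are not reported here. Members, gene lists and rules were chosen with earlier results of these data known. Alternatives changed the filters, the averaging, thinning to 500 UMIs, the clustering, the scaling and the minimum of UMIs. For the ribosomal protein shares, thinning repeats the mean over cells, because each cell then has the same weight.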

Additional observations from a re-analysis of the deposited data

Results flagged for a closer look

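Rows marked as pseudogenes, which the members leave out, held 70838 UMIs in the cells kept. Of these, 41215 were of Rpl9-ps6, with 30897 in Smad3-WT (2537 CPM) and 10318 in Smad3-KO (2488 CPM). They stood out as a signal in rows outside the measurement, far above the limit of 3 UMIs, and how many came from the parent gene Rpl9 was not tested. Rpl10-ps3 held 23688 UMIs in Smad3-WT (1945 CPM) and 4202 in Smad3-KO (1013 CPM).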

How the results depend on the processing

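No paired analysis was possible because each group is 1 library and no result comes from a test. Leaving out a replicate was not possible either.

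The Smad3-KO over Smad3-WT ratio of the ribosomal protein share over all cells (0.841) was 0.655 with no cell filter, 0.650 with no upper UMI limit, 0.652 with at least 500 UMIs and up to 20% mitochondrial UMIs, 0.697 in cells called by 4 markers and 0.306 without cells holding a T or B marker UMI, and turned to 1.51 as a mean over cells and to 1.51 with cells thinned to 500 UMIs. In neutrophil-like cells the ratio (0.858) was 0.628, 0.808 and 0.667 under the same 3 filters, 0.719 as a mean over cells, 0.722 thinned, 0.799 at resolution 0.1, 0.644 with 30 components, 0.653 with another seed, 0.640 with the members kept among the variable genes, 0.802 without the Camp, Ngp and Ltf cluster and 0.531 without cells holding a T or B marker UMI.

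In the same order the median member ratio (0.801) was 0.585, 0.745 and 0.613 under the filters, 0.695 thinned, 0.728 at the lower resolution, 0.594, 0.598 and 0.588 under the other clusterings, 0.746 without the Camp cluster and 0.476 without T or B marker UMIs, and 0.971 scaled by the median of gene ratios and 0.816 at 200 UMIs. The number of members at least 1.5-fold lower (16) was 62 with no filter, 54 with 20% mitochondrial UMIs, 38 thinned, 60, 60 and 62 under the other clusterings, 27 without the Camp cluster, 73 without T or B marker UMIs, 10 for the standard proteins alone, 10 at 200 UMIs and 5 by the median of gene ratios, which gave 7 higher in place of 0. The share of all genes lower was computed in the main setting (36%) and without T or B marker UMIs (42%). It was not computed under the other settings, so their counts do not set the members apart from other genes.

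Ratios of single genes on the other side of 1 were, in the order no filter, 20% mitochondrial UMIs, 30 components, other seed, members kept and no T or B marker UMI: Rpl10a 0.697, 0.862, 0.750, 0.754, 0.743 and 0.356, Rpl39 0.839, 0.904, 0.869, 0.879, 0.917 and 0.695, Rplp1 0.938, 0.979, 0.946, 0.979, 0.961 and 0.777, Rps15a 0.745, 0.813, 0.786, 0.803, 0.783 and 0.484, Rps19 0.774, 0.775, 0.749, 0.787, 0.775 and 0.541, Rps24 0.763, 0.846, 0.805, 0.841, 0.900 and 0.523, Rps28 0.840, 0.911, 0.848, 0.895, 0.885 and 0.734, and Rps4x 0.596, 0.700, 0.686, 0.667, 0.626 and 0.370. Without members kept, Rpl22l1 gave 0.857, 0.922, 0.877, 0.874 and 0.792 and Rps29 0.904, 0.992, 0.959, 0.980 and 0.813. Rpl35a was 0.877 without T or B marker UMIs, and Rps27 and Rps9 were 1.10 and 1.04 by the median of gene ratios. The cause of these shifts was not tested. Of the class shares under the alternatives, 46 stayed within the counting interval and 123 moved out of it, and 83 ratios of large to small subunit stayed and 5 moved. Levels near 20 UMIs are limited by depth.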
